A study of Mus musculus with 2 samples.

Results

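A set of 9 genes that mark long-term hematopoietic stem cells was followed in LSKs from the bone marrow of Scl/tTA-BA mice, before and after expression of BCR/ABL (BA) was switched on. The genes are Mecom, Hlf, Meis1, Prdm16, Mllt3, Procr, Slamf1, Fgd5 and Ctnnal1. They were chosen by name, with earlier results of these data known, and all 9 were found once among the 34745 genes of the deposited tables. LSKs are bone marrow cells negative for lineage antigens and positive for Sca1 and c-Kit, a gate that holds stem cells together with multipotent progenitors. Both groups were C57BL/6 mice carrying the 2 transgenes, Scl/tTA and TRE-BA, with the transactivator tTA under the Scl promoter. Mice of the week-0 group were kept on doxycycline, which silences BA, and mice of the week-3 group were sampled 3 weeks after its withdrawal. Each group was 1 library of LSKs mixed from 3 mice, so the spread between mice is unknown and no test of the time points was possible. The week-3 library holds every sorted LSK, whether or not a cell expressed BA, and the ages of the mice are not given in the sources used here.

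Long-term stem cells are the small part of the LSK gate that can rebuild blood for life, and most of them are out of cycle. Mecom (also called Evi1), Hlf, Meis1 and Prdm16 are transcription factors needed for their maintenance or self-renewal, and Mllt3 (Af9) is a chromatin reader that couples to transcription elongation. Procr (EPCR) and Slamf1 (CD150) are surface receptors by which these cells are sorted. Fgd5 is an exchange factor for the GTPase Cdc42 whose locus is used as a stem cell reporter, and Ctnnal1 (alpha-catulin) is a relative of alpha-catenin used in the same way.

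Of the 9 genes, 8 had a lower FPKM at week-3 than at week-0, and Slamf1 alone had a higher one. The FPKM is a level per length, the fragments of a gene per kilobase of exon scaled to the reads counted in the library. At an FPKM ratio of at most 0.5 there were 4 genes, Fgd5, Procr, Mllt3 and Mecom. Among all 13689 genes with at least 10 reads over both libraries, 17.9% had such a ratio. The only ratio of at least 2 was that of Slamf1, against 11.9% of all genes. The median log2 change (week-3 over week-0) was -0.77 over the 9 genes and 0.05 over all 13689. The 95% interval of the ratio (exact Clopper-Pearson, counting error only) lay wholly under 1 for 7 of the 9, as it did for 27.3% of all genes. Together the genes took 311 RPM (reads scaled to the library total) at week-0 and 171 RPM at week-3, a log2 change of -0.87 (95% interval -1.0 to -0.74). Meis1 and Hlf together gave 66% of this sum before withdrawal and 71% after it. In bulk RNA, fewer cells of a type and less RNA per cell cannot be told apart.

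**Figure D1:**
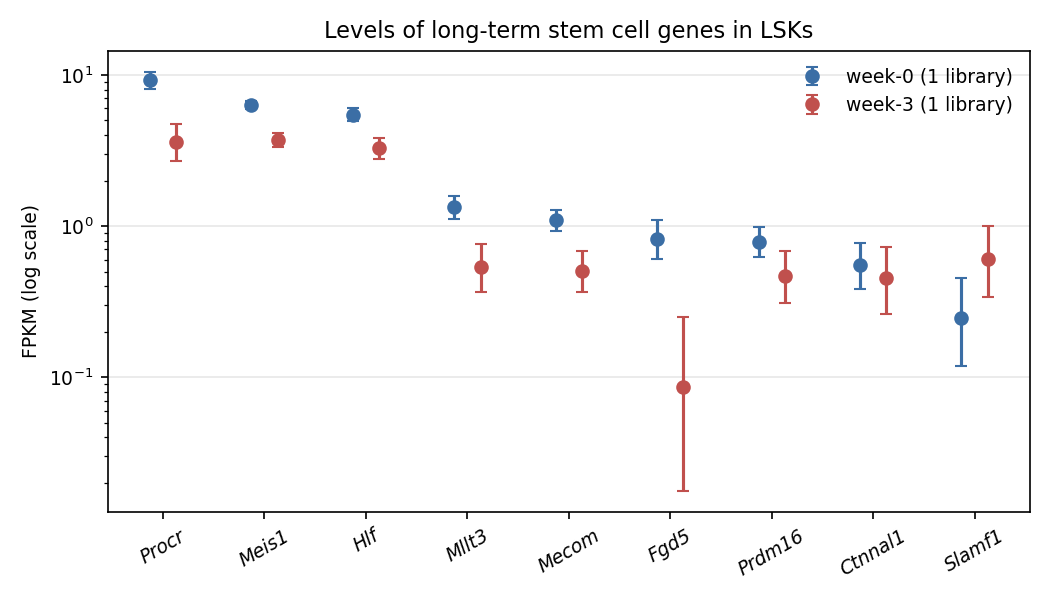
FPKM of each gene (log axis) in the week-0 library (blue) and the week-3 library (red), 1 library each, with exact 95% Poisson intervals that cover counting error only. For Procr, Meis1, Hlf, Mllt3, Mecom and Fgd5 the red interval lies below the blue one, while for Prdm16, Ctnnal1 and Slamf1 the intervals overlap.

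The libraries set how finely these ratios can be read. Reads counted on genes came to 6356164 for week-0 and 3886695 for week-3. TMM scaling in place of total reads would move every log2 change given here, and that of all genes, by -0.11. The sorting markers were present in both libraries, Kit at an FPKM of 16.9 and 11.5 and Ly6a (Sca1) at 19.8 and 14.8. Both were lower at week-3, Kit with a log2 change of -0.55 (interval -0.69 to -0.41) and Ly6a with -0.42 (interval -0.66 to -0.17). Of 9 mature lineage markers, 5 had at least 10 reads and 2 of these a ratio of at most 0.5, and Cd3e and Cd8a had at most 5 reads before withdrawal and none after it, under the limit of 3 reads. Several other groups of genes differed between the libraries alongside the stem cell genes. All 8 mast cell genes were higher at week-3, where they took 0.396% of the reads against 0.0129%. The 10 immediate-early genes took 3.44% of the week-0 reads and 0.966% of the week-3 reads, the 7 erythroid genes 0.141% and 0.00888%, and immunoglobulin genes 1.16% and 0.0895%. The part of these differences in the changes of the stem cell genes was not tested.

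The 4 transcription factors and Mllt3 were all lower at week-3, and Meis1 and Hlf had the most reads of the set. Meis1 (ENSMUSG00000020160), a homeobox factor and partner of Hox proteins, lies on chromosome 11 (GRCm38, minus strand, 18879817 to 19018985). Its FPKM was 6.33 in the week-0 library (903 reads) and 3.71 in the week-3 library (324 reads). Its ratio was 0.587, a log2 change of -0.77 (95% interval -0.96 to -0.58), the narrowest interval of the set. Hlf (ENSMUSG00000003949, chromosome 11, minus strand, 90336536 to 90390895), a PAR-type bZIP factor, had 403 and 147 reads and an FPKM of 5.47 and 3.26. Its log2 change was -0.75 (interval -1.03 to -0.47). Both intervals lay under 0 on the log2 scale, and both estimates stayed short of a 2-fold difference.

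Mecom and Prdm16 are close relatives that carry a PR domain and zinc fingers. Mecom (ENSMUSG00000027684, chromosome 3, minus strand, 29951296 to 30548008) had an FPKM of 1.09 in the week-0 library (154 reads) and 0.507 in the week-3 library (44 reads), a log2 change of -1.10 (interval -1.62 to -0.61). Mecom is transcribed from distant starts that give a long form with the PR domain and a short form without it, and counts per gene do not separate the forms. Prdm16 (ENSMUSG00000039410, chromosome 4, minus strand, 154316125 to 154636873) had 77 and 28 reads and an FPKM of 0.79 and 0.47. Its log2 change of -0.75 had an interval from -1.43 to -0.11, which overlaps that of Mecom, and a difference between these relatives was not tested.

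Mllt3 (ENSMUSG00000028496, chromosome 4, minus strand, 87769925 to 88033364) had an FPKM of 1.34 (130 reads) before withdrawal and 0.538 (32 reads) after it. Its log2 change was -1.31 (interval -1.92 to -0.75), a level 2.48-fold lower at week-3.

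The surface receptors went in opposite directions. Procr, the receptor for protein C, lies on the plus strand of chromosome 2 from 155751117 to 155755471 (ENSMUSG00000027611) and had the highest FPKM of the set at week-0. Its FPKM was 9.22 (221 reads) before withdrawal and 3.62 (53 reads) after it. The log2 change was -1.35 (interval -1.81 to -0.91), 2.55-fold lower, and 13% of all compared genes had a change further down. Slamf1 (ENSMUSG00000015316, chromosome 1, plus strand, 171767127 to 171801184) was the gene with the fewest reads of the set. Its FPKM was 0.247 (10 reads) before withdrawal and 0.605 (15 reads) after it. Its log2 change of 1.29 had an interval from 0.04 to 2.61, so the higher value at week-3 rests on a handful of reads, and with TMM scaling the interval would hold 0.

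Fgd5 had the largest change of the 9 and one of the smallest counts. This gene (ENSMUSG00000034037, chromosome 6, plus strand, 91978878 to 92076004) had an FPKM of 0.822 in the week-0 library (47 reads). In the week-3 library its FPKM was 0.0858 (3 reads), a ratio of 0.104 (interval 0.0208 to 0.324) and a log2 change of -3.26 (interval -5.59 to -1.62). A change further down was found for 3.8% of compared genes. Ctnnal1 (ENSMUSG00000038816, chromosome 4, minus strand, 56810935 to 56865188) had 34 and 17 reads and an FPKM of 0.553 and 0.452. Its log2 change was -0.29 with an interval from -1.22 to 0.59, so a change was not detectable at this depth, and a level 2-fold lower lies within the interval. Fgd5 and Procr are also known from endothelium. Of the markers that define endothelial cells, Cdh5 had 3 reads and Kdr 4 reads at week-0, and neither had any at week-3. Of the 3 other endothelial genes, 2 had a ratio of at most 0.5. Tie1 had 274 and 34 reads, Emcn 108 and 19, and Pecam1 260 and 189. The part of endothelial cells in the change of Fgd5 and Procr was not tested.

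**Figure D2:**
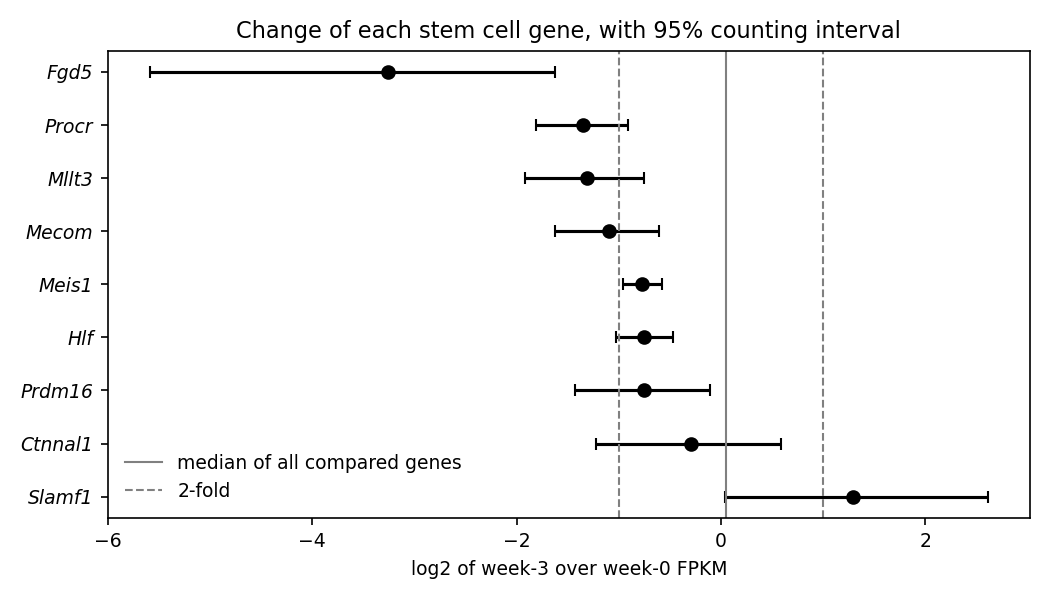
log2 of the week-3 over the week-0 FPKM for each gene (points), with the exact 95% interval from the reads of the 2 libraries (bars), the median of all compared genes (solid line) and 2-fold limits (dashed lines). Fgd5, Procr, Mllt3 and Mecom lie past the lower limit, but only the interval of Fgd5 lies wholly beyond it, from -5.59 to -1.62.

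Counting error alone is wide for genes of this depth. Of the 9 genes, 6 had at least 100 reads over both libraries, and 3 of these (Procr, Mllt3 and Mecom) had a ratio of at most 0.5. Among all 8832 genes with at least 100 reads, 11.4% did. None of the 6 had a ratio of at least 2, against 7.51% of these 8832 genes. The intervals of Meis1, Hlf, Mecom, Mllt3, Procr and Prdm16 overlap one another. Overlap alone does not show that 2 changes are alike, and differences between their changes were not tested. The interval of Fgd5 lay wholly under those of Meis1, Hlf, Prdm16, Ctnnal1 and Slamf1. It lay barely under that of Mecom, with an upper end of the ratio of 0.324 against a lower end of 0.326.

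**Figure D3:**
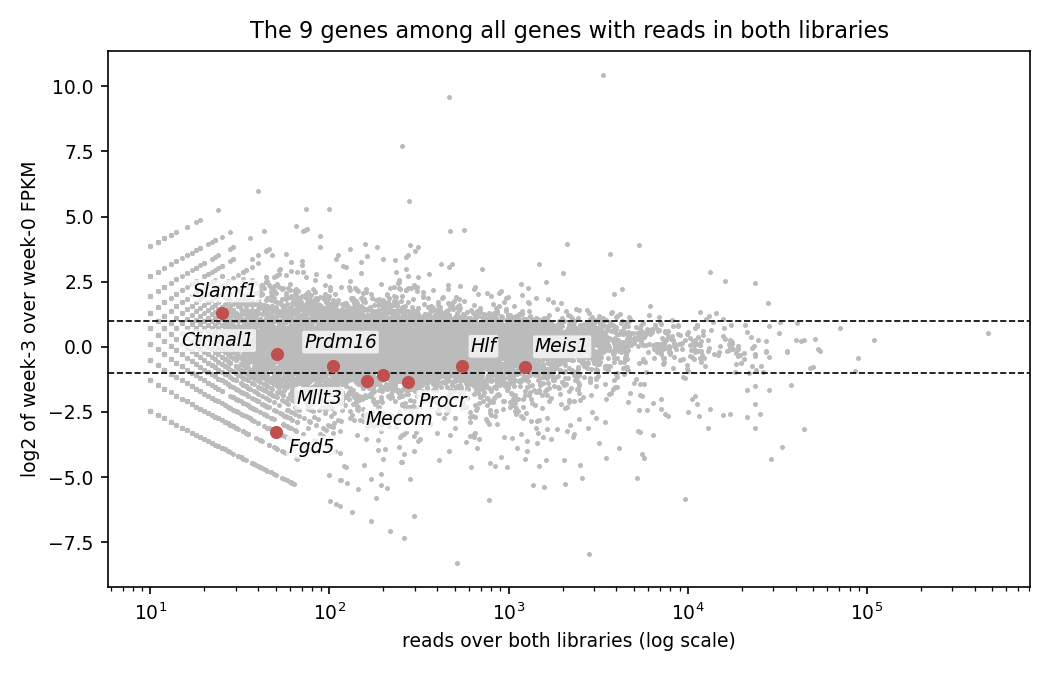
log2 of the week-3 over the week-0 FPKM (vertical axis) against reads over both libraries (log axis) for every gene with at least 10 reads in all and at least 1 read in each library (grey), with the 9 genes in red and dashed 2-fold limits. Slamf1, Ctnnal1 and Fgd5 lie among genes of few reads, where the grey cloud is widest, and Meis1 and Hlf where it is narrow.

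The levels of the genes can be compared with one another per length, but the length behind the deposited FPKM matters. For all 9 genes the deposited FPKM implies an exon length equal, within 0.5%, to the sum of all distinct exons in GENCODE M21, so bases shared by exons of different transcripts are counted more than once. The same held for 70% of the 13652 compared genes found in that annotation. The summed length was between 1.04 times (Slamf1) and 2.13 times (Meis1) the merged length. This leaves the ratio between the libraries as it is and shifts levels between genes. Per kilobase of merged exon, the week-0 values were 17.1 for Procr, 13.5 for Meis1 and 9.49 for Hlf, each beyond the counting interval of the next. Mecom (1.95), Mllt3 (1.7), Prdm16 (1.3), Fgd5 (1.18) and Ctnnal1 (0.698) followed, neighbours in this order overlapping, and Slamf1 was lowest at 0.256, beyond the interval of Ctnnal1. At week-3 the highest were Meis1 (7.92), Procr (6.71) and Hlf (5.66), whose neighbouring intervals overlapped. Mecom (0.911), Prdm16 (0.773), Mllt3 (0.686), Slamf1 (0.627), Ctnnal1 (0.571) and Fgd5 (0.123) followed, again with overlap between neighbours. Mecom ranked above Mllt3 on this scale and below it by the deposited FPKM, within counting error in both.

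The 9 genes lie on 6 chromosomes, and all are annotated as protein-coding. Their coordinates in the tables are those of GENCODE M21. Exons of Mecom overlap the antisense gene Mecomos by 81 bases, those of Meis1 overlap the antisense gene Gm16140 by 896 bases and Gm37818 on the same strand by 1029 bases, and those of Prdm16 overlap B230104I21Rik by 109 bases. Whether the counting used strand is not given in the sources used here. These neighbours had few reads, at most 13 at week-0 (Mecomos) and 4 at week-3. In the GO terms of the tables, hemopoiesis was given to Mecom, Meis1 and Prdm16, a term held by 4.23% of all compared genes. Negative regulation of myeloid cell differentiation, held by 0.424%, was given to Meis1 and Prdm16. Of broader terms, immune system process was given to 5 of the 9 and to 10.5% of all compared genes, and DNA binding to 4 and to 10.1%. The terms were picked by hand.

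Because Meis1 is a DNA-binding member of the set, promoters of all 9 genes were read for its core motif TGACAG. RefSeq (GRCm38.p6) gives 11 windows of 300 bases for them, from 250 bases before each transcription start to 50 after it, with a window each at 2 starts for Mecom and for Mllt3. The motif, on either strand, was in 3 of the 11 windows and in 19.2% of all 32851 windows. The genes with a match were Mecom, Mllt3 and Fgd5. For Mecom and Mllt3 it was at the downstream start, 496555 and 227084 bases from the upstream one. The matches are shown because they are the letters these genes share, in 30 bases on the strand of the gene, with the motif or its reverse complement in capitals:
Mecom, chr3:30013273-30013302, minus strand: cagaggaggctgCTGTCActttaaaaattt
Mllt3, chr4:87806356-87806385, minus strand: accatgtgtttgCTGTCAtttaaactgcca
Fgd5, chr6:91978727-91978756, plus strand: accctcggtctcTGACAGcacagaaaaaaa
A match of 6 letters is a description and no evidence of binding. The GATA motif AGATAA, the STAT motif TTCNNNGAA and the PAR bZIP motif TTACNTAA, each on both strands, were in 0 of the 11 windows, against 11.2%, 8.3% and 2.32% of all windows. The ETS motif AGGAAG was in the windows of Fgd5 and Slamf1 (35.4% of all windows) and the RUNX motif TGTGGT in that of Meis1 (16.8%).

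Other genes known from long-term stem cells mostly lay on the same side. Of 24 further genes, a list chosen with earlier results of these data known, 23 had at least 10 reads. Of these 23, 13 had a ratio of at most 0.5 and none of at least 2, against 17.9% and 11.9% of all compared genes. Their median log2 change was -1.11, and 21 of the 23 were lower at week-3. The part of endothelial cells in the changes of this list was not tested either. The cation channel gene Trpc6 (-3.16, 44 and 3 reads), the imprinted gene Ndn (-3.10, 56 and 4 reads) and the lectin receptor gene Clec1a (-2.41, 26 and 3 reads) had few reads. Eng (endoglin, a TGF-beta co-receptor) was the most deeply covered, with 1402 and 287 reads, and its log2 change was -1.58 (interval -1.77 to -1.39). The list was not uniform. Hoxa9 (log2 change -0.08, interval -0.33 to 0.17), whose product binds DNA together with Meis1, had an interval around 0, and Txnip was higher, at 0.46 (interval 0.22 to 0.70).

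Genes of the neighbouring compartments, in lists also chosen with earlier results of these data known, showed both directions. Among all compared genes, 17.9% had a ratio of at most 0.5 and 11.9% of at least 2. Of 11 compared genes of multipotent and lymphoid-primed progenitors, 6 had a ratio of at most 0.5 and none of at least 2, with a median log2 change of -1.58. Flt3, the cytokine receptor that marks progenitors lacking long-term activity, went from an FPKM of 157 to 38.9, a log2 change of -2.02 (interval -2.12 to -1.92). Notch1 was at -2.45 and Ccr9, a lymphoid homing receptor, at -3.59. Ighm, at -3.11, had the most reads and belongs to the immunoglobulin genes. Cd34, another progenitor marker, was at -0.61. In contrast, of 10 myeloid progenitor genes 8 were at a ratio of 2 or above and none at 0.5 or under, with a median log2 change of 2.08. Of the granule protease genes, Ctsg was at 2.88, Prtn3 at 2.53 and Elane at 2.46. Ms4a3, a marker of granulocyte and monocyte progenitors, was at 3.55, and Mpo (myeloperoxidase), with the most reads of the list, at 1.68. Csf3r, with 644 and 290 reads, was the 1 gene of the 10 that was lower at week-3. Its log2 change was -0.44 (interval -0.65 to -0.24). The myeloid list took 0.37% of the week-0 reads and 1.74% of the week-3 reads.

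**Figure D4:**
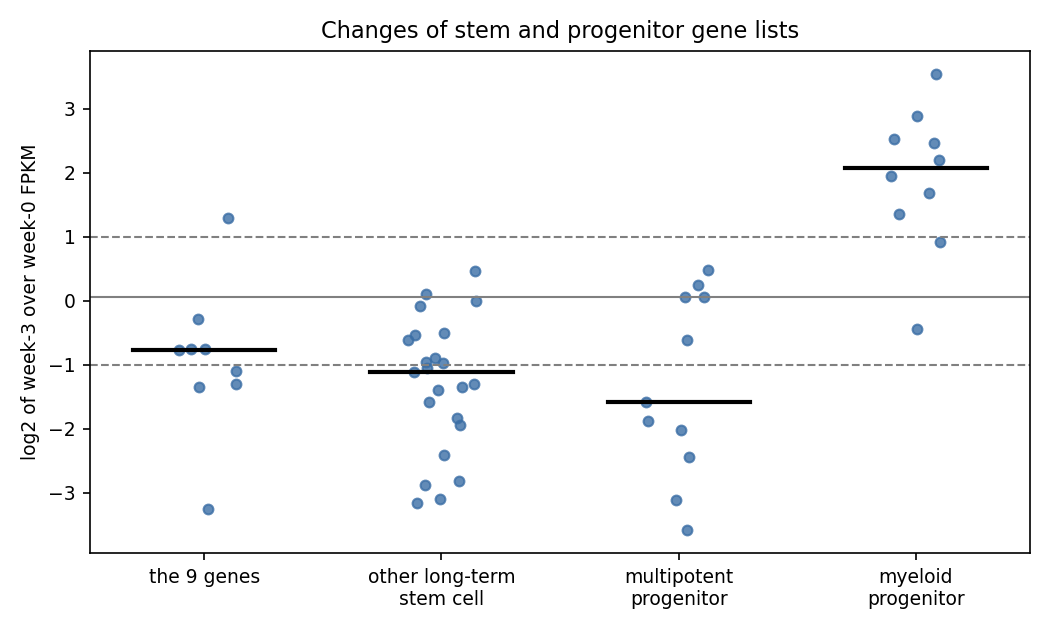
log2 of the week-3 over the week-0 FPKM of single genes (points, with sideways scatter for legibility) in 4 lists, with the median of each list (thick bar), the median of all compared genes (solid line) and 2-fold limits (dashed lines). The medians are -0.77 for the 9 genes, -1.11 for other long-term stem cell genes, -1.58 for multipotent progenitor genes and 2.08 for myeloid progenitor genes.

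Relatives and partners of the 9 genes were read from lists by family, likewise chosen with earlier results of these data known. Over 72 compared genes of these lists, 21 had a ratio of at most 0.5 and 3 of at least 2, and the median log2 change was -0.31. Among all 13689 compared genes, the shares were 17.9% and 11.9%. Each family count below is to be read against these shares, and a count near them is no result about that family. The families are given in the order of the genes they belong to.

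Of 8 compared Prdm genes other than Prdm16, Prdm1 alone had a ratio of at most 0.5. Prdm1 (Blimp1), a repressor of lymphocyte programs, had 39 reads before withdrawal and 1 read after it, a log2 change of -4.58 (interval -9.92 to -2.01). Prdm2 had the most reads, 250 and 84, and was at -0.86, and Prdm4 was at -0.93. Prdm10 (-0.21), Prdm11 (-0.36) and Prdm9 (0.61) had intervals that held 0, and Prdm15 was at 0.94. Among 8 corepressors used by Mecom, 2 had a ratio of at most 0.5, the related genes Skil (-3.21, 4965 and 327 reads) and Ski (-3.45, 891 and 50 reads), which also restrain Smad signalling. Ctbp1, the corepressor bound directly by Mecom, was at 0.04 (interval -0.14 to 0.21) and Ctbp2 at 0.88.

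The PAR bZIP relatives of Hlf are outputs of the circadian clock. Tef was at -0.73 (interval -1.37 to -0.13) with 87 and 32 reads, close to Hlf. Dbp was at -1.26 (interval -2.31 to -0.32), and Nfil3, a repressor at the same sites, was at 0.64. Of the Meis relatives, Meis3 had 25 and 4 reads and a log2 change of -1.93, and Meis2 had 1 and 2 reads. Among 8 compared genes of the TALE homeobox class, 3 had a ratio of at most 0.5, which were Meis3 and the repressors Tgif1 (-1.51) and Tgif2 (-2.47).

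Mllt3 works with the super elongation complex and with the histone methyltransferase Dot1l. Of 14 compared genes of this group, 6 had a ratio of at most 0.5 and none of at least 2, with a median of -0.75. Eaf2 was at -3.58 on 39 and 2 reads, Ell2 at -2.30, Ccnt1 at -1.73 and Aff1 at -1.51. Dot1l, with the most reads of the group, had an FPKM of 14.8 and 5.65 and a log2 change of -1.39 (interval -1.57 to -1.20). Cdk9, the kinase of the complex, was at 0.05 (interval -0.17 to 0.26), and Mllt1, the paralog of Mllt3, was at -0.10 (interval -0.45 to 0.24). The interval of Mllt1 lay wholly above that of Mllt3.

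Of 8 compared genes of the protein C pathway around Procr, 2 had a ratio of at most 0.5 and 2 of at least 2. F2r (PAR1), the receptor cleaved by activated protein C bound to Procr, had 1107 and 66 reads and an FPKM of 52.7 and 5.13, a log2 change of -3.36 (interval -3.74 to -3.0). F3 (tissue factor) had 55 reads and 1 read, at -5.07. F10, which encodes coagulation factor X, was at 4.48 with 5 and 68 reads, and Pros1, which encodes the protein C cofactor protein S, was at 2.83 on 3 and 13 reads. Thbd (thrombomodulin), the cofactor for activation of protein C, was at -0.69, the surface glycoprotein gene Cd93, with the most reads of the list, at -0.32, and Proc itself had no reads in either library, under the limit of 3 reads.

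Slamf1 is read together with Cd48 in the SLAM code, in which long-term stem cells carry CD150 and lack CD48. Cd48 went from an FPKM of 73.3 to 102, a log2 change of 0.48 (interval 0.33 to 0.62). Of 9 compared genes of the SLAM family and its adaptors, 3 had a ratio of at most 0.5 and 1 of at least 2. Cd244 (0.25), Cd84 (0.13) and Ly9 (-0.05) had intervals that held 0. Slamf7 was at -3.50 with 37 and 2 reads, and Slamf6 was at -1.36 with an interval up to 0.09. The third lower gene, Slamf8, had 10 and 3 reads and an interval that held 0. The adaptor gene Sh2d1b1 was the one higher, at 1.93 with 6 and 14 reads.

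Of 8 compared genes of the Fgd and Cdc42 list, 2 had a ratio of at most 0.5 and none of at least 2. Fgd1 (-3.33, 33 and 2 reads) and Fgd6 (-3.07, 55 and 4 reads) were these 2, with intervals that overlap that of Fgd5. Fgd2, the most abundant, was at -0.21, Fgd3 at -0.96 and Fgd4 at -0.30. Cdc42, the GTPase that Fgd proteins activate, had the most reads of the list and was at 0.14 (interval 0.04 to 0.24), an interval that would hold 0 with TMM scaling. Of the exchange factors of the Vav family, Vav1 was at 0.70 and Vav3 at -0.06. Of 6 compared genes around Ctnnal1, 1 had a ratio of at most 0.5. Ctnna1 (alpha-catenin, 0.13), Ctnnb1 (beta-catenin, 0.00) and Ctnnd1 (-0.18) had intervals that held 0, and Vcl (vinculin), the one lower, was at -1.34 (interval -2.26 to -0.51). Arhgef1, an exchange factor for RhoA, was at -0.90, and Rhoa at -0.45.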

How the data were processed

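RNA of sorted BM LSKs was sequenced by the authors as paired ends from SMARTer cDNA, and reads were mapped to GRCm38 with TopHat2 2.0.9, per the labels and the study's methods. The counting tool and annotation release are not given in the sources used here. The authors deposited raw counts and FPKM per gene. Libraries were grouped by the labelled time, with 1 library per week. The study used edgeR, and with no replicates no p-value is given here. Changes are log2 ratios of the FPKM without a pseudocount, with exact 95% Clopper-Pearson intervals of the week-3 share of a gene's reads, turned into ratios. The cDNA was amplified and carries no molecular identifiers, so intervals cover counting error only. Genes with at least 10 reads over both libraries were compared with limits of 2 and 0.5. The members and lists were chosen with earlier results of these data known. Of each list, the text names genes past 2-fold with at least 20 reads (at most 4), the gene with the most reads, and direct relatives of a member. Some genes of the lists are counted but not reported here by name. Other genes are named for their role. They were chosen after their values were seen. Motifs were also chosen after the counts were seen. Itgam has 2 identifiers, and the one with more reads was used. Alternatives were TMM (edgeR 4.0.16) and median-of-ratios (DESeq2 1.42.0) in R 4.3.3, other limits and pseudocounts, and edgeR's exact test with an assumed variation. Merged exon length was an alternative chosen after seeing the data. On simulated counts of 13723 genes, 200 of 200 genes changed 4-fold passed the limits, and 95.9% of intervals held the true ratio. The counts were drawn as Poisson, without spread between mice. The changed genes were drawn from those with at least 20 expected week-3 reads, which leaves out Fgd5, Ctnnal1 and Slamf1. The simulation therefore checks the computation only. Intervals were computed with scipy 1.17.1 and tables with pandas 2.3.3 under Python 3.11.15.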

Additional observations from a re-analysis of the deposited data

How the results depend on the processing

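TMM scaling moved every log2 change by -0.11, median-of-ratios by -0.09 and total reads without mast cell, immediate-early and immunoglobulin genes by -0.05. With these 3 scalings the numbers of the 9 genes past 2-fold were as reported. Among all compared genes, 19.7% had a ratio of at most 0.5 and 9.97% of at least 2 with TMM. With median-of-ratios these shares were 19.4% and 10.3%, against 17.9% and 11.9% by total reads. Of the 23 other long-term stem cell genes, 16 with TMM and 15 with median-of-ratios had a ratio of at most 0.5, against 13 as reported. Of the 72 relatives and partners, 24 and 23 did, against 21. With a pseudocount of 1 on the FPKM, 1 of the 9 had a ratio of at most 0.5 and 0 of at least 2, against 1068 (7.8%) and 686 (5.01%) of all 13689 compared genes. The log2 change was then -0.47 for Mecom, -0.60 for Mllt3 and -0.75 for Fgd5. With limits of 1.5 and 0.67, 7 were past the lower limit and 1 past the upper one, against 3664 (26.8%) and 3362 (24.6%) of all compared genes. A minimum FPKM of 1 in one or both libraries left 5 of the 9, of which 3 had a ratio of at most 0.5 and 0 of at least 2, against 15.8% and 12.9% of the 11776 genes left. With edgeR's exact test between the libraries and an assumed biological coefficient of variation of 0.4, 0 of the 9 passed both the test and the 2-fold limit in either direction (195 of all compared genes, 1.42%, did so downward and 52, 0.38%, upward, where 2455 and 1633 did by the ratio alone). With 0.1, 4 of the 9 passed downward and 0 upward, against 1858 (13.6%) and 1280 (9.35%) of all compared genes. Per merged exon, an alternative chosen after seeing the data, 7 of the 9 were at 1 or more at week-0 and 3 at week-3, against 5 and 3 by the deposited FPKM. No paired analysis was possible because each time point has 1 library, and no replicate could be left out. At this depth, changes of Slamf1, Ctnnal1 and Fgd5 are known only within wide intervals.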

Other observations

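Of 6 genes of proliferating cells, none had a ratio past 2 or 0.5. Ccnb1, a mitotic cyclin, went from an FPKM of 7.68 to 15.3, Top2a was at a log2 change of 0.59 (interval 0.47 to 0.71) and Aurkb at 0.61, while Mki67 was at -0.06 (interval -0.20 to 0.08). The median log2 change of the 6 was 0.49. Of 6 megakaryocyte genes, a lineage that shares Vwf with stem cells, only Ppbp had a ratio of at most 0.5, with 28 and 2 reads. Itga2b was higher at week-3, with a log2 change of 0.93 (interval 0.76 to 1.10), and Pf4 was at -0.12 (interval -0.54 to 0.29). Vwf, counted with the stem cell genes, was at -0.98 (interval -1.56 to -0.43).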
